A study of Homo sapiens with 4 samples.

Results

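The genes described here are 56 drivers of mitosis: cyclins and mitotic kinases, the anaphase-promoting complex and its partners, spindle proteins and cytokinesis proteins, without kinesins and kinetochore genes. They were chosen by name, as features to which the array's annotation gives exactly 1 of the listed symbols. The choice was made with earlier results of these data known, so their counts beside the shares over all genes are a description only. Of the 56, 54 were found, each on 1 feature, among 17687 genes tested. CKAP5 and CIT were not analysed here. All cells were NB4-R4, a single ATRA-resistant (all-trans retinoic acid) subclone of NB4, a line from acute promyelocytic leukaemia. They received either the CHK1 inhibitor MK-8776 at 4 µM or its vehicle DMSO, and total RNA was taken at 96 h on Affymetrix arrays, 2 per group. The 2 arrays of each group are labelled as biological replicates with nothing further on separate cultures, so p-values measure only the spread between these samples. The values are log2 expression after RMA, a method that makes arrays alike in distribution, so every change is relative to the other genes. In RNA from a whole culture, fewer cells in G2 and mitosis and less RNA per such cell cannot be told apart.

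Entry into mitosis is driven by CDK1 bound to cyclin A or B, with the Polo, Aurora, NEK and Greatwall kinases acting beside it. Exit is driven by the anaphase-promoting complex or cyclosome (APC/C), a ubiquitin ligase that CDC20 and later FZR1 direct to securin, the cyclins and the mitotic kinases. Transcripts of many of these genes peak in G2 and M phase, where MuvB with B-MYB and FOXM1 activates them through CHR elements and NF-Y binds CCAAT boxes, and the DREAM complex represses them in resting cells. CHK1 restrains CDK1 when DNA replication stalls, and MK-8776 blocks that kinase.

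After MK-8776, the kinase genes NEK2, PLK1, AURKB and PLK4, the cyclin genes CCNA2, CCNB1, CCNB2 and CCNF and the securin gene PTTG1 were among those that fell, by up to 4.08-fold for NEK2. Of the 16 cyclins and kinases 9 passed the test, of the 10 spindle genes 5, and of the 9 core subunits of the APC/C 0. In the limma fit over all genes (two-sided, Benjamini-Hochberg adjusted p under 0.05), 21 of the 54 fell, 0 rose and 33 did not pass. Over all genes tested, 2.02% fell and 1.66% rose, 3.69% in either direction. At an unadjusted p under 0.05 there were 35 of the 54, against 18.8% of all genes. The median log2 change, MK-8776 minus DMSO, was -0.855 over the 54 and 0.005 over all genes. The sign was negative in 51 of the 54. Both MK-8776 arrays lay below both DMSO arrays in 45 of them, against 24.2% of all genes, and above in 0, against 24%. A change of -1 or lower was seen in 22 of the 54 and in 2.67% of all genes. All 21 falls rest on the full set of 4 arrays: limma called 0 of the 54 when either DMSO array was left out and 0 when either MK-8776 array was. At an unadjusted p under 0.05 there were 28 and 26 without DMSO replicates 1 and 2, and 28 and 34 without MK-8776 replicates 1 and 2. The sign of all 21 stayed negative in each of those fits. It could not turn, since both MK-8776 arrays lay below both DMSO arrays in all 21, so this is no further support.

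**Figure D1:**
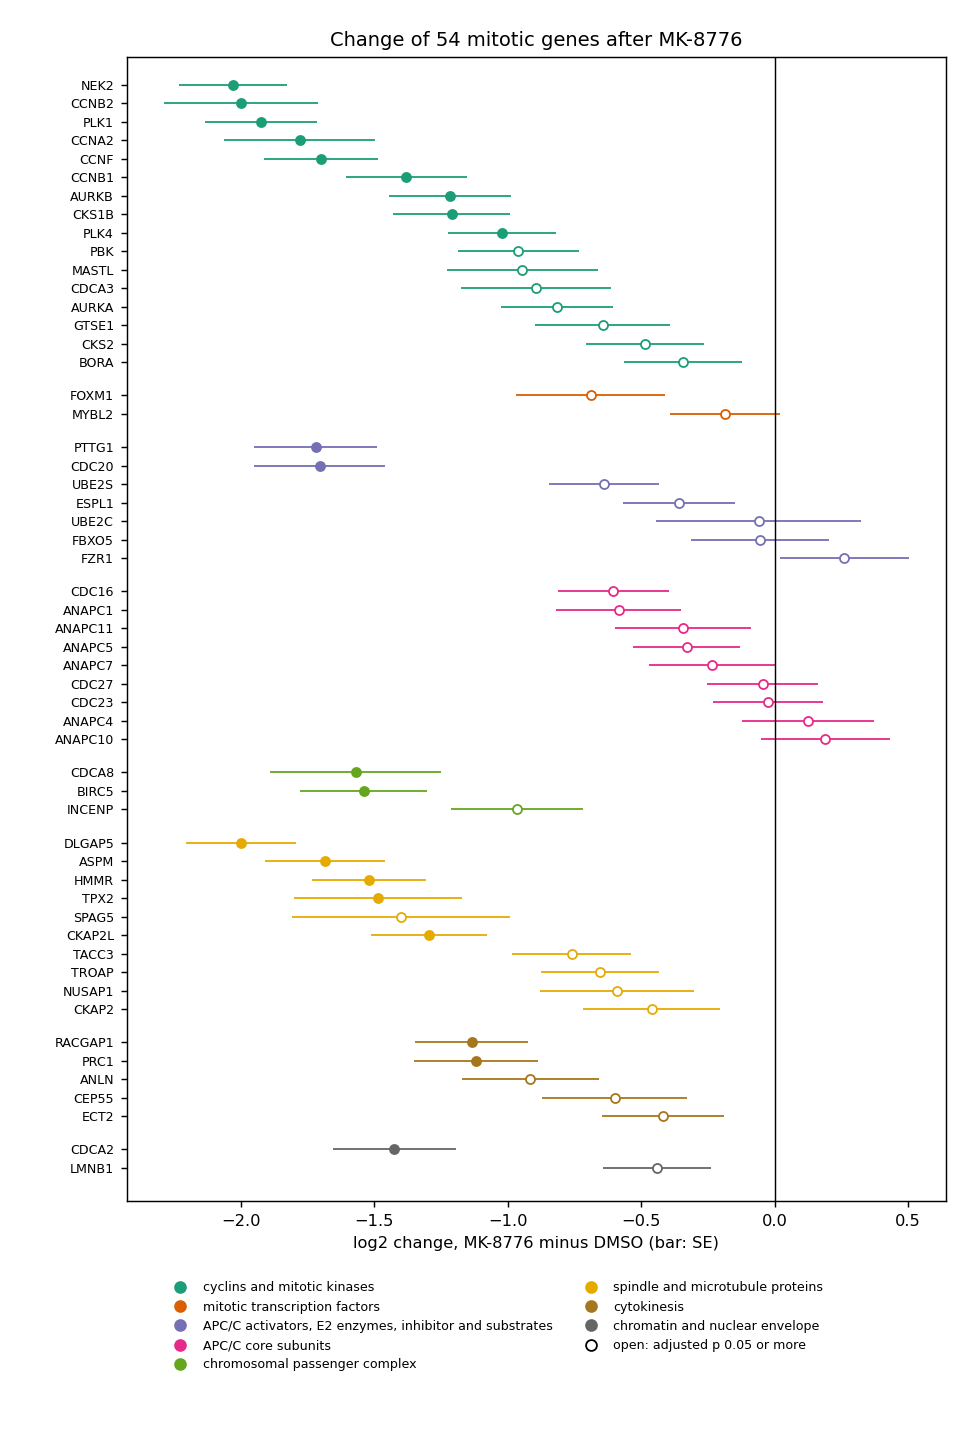
Log2 change, MK-8776 minus DMSO, of each of the 54 genes by role group (points, with SE from limma as bars, 2 arrays per group). Filled points are the 21 that passed, which run from -2.03 to -1.02; the 9 APC/C core subunits lie between -0.605 and 0.19.

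**Figure D2:**
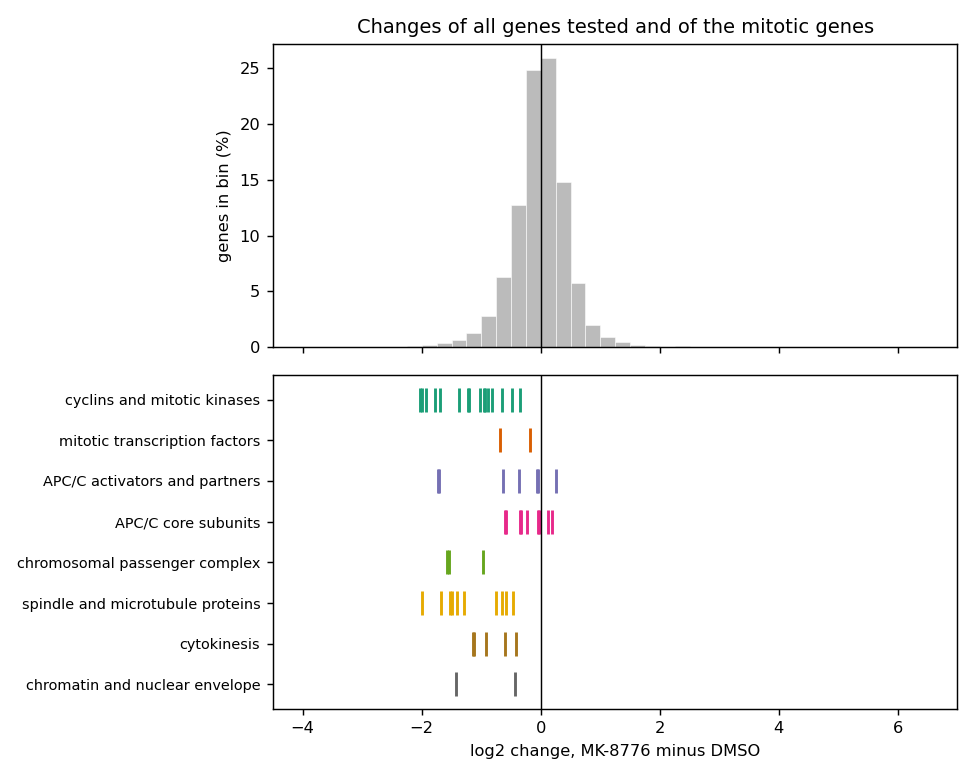
Upper panel: percent of all 17687 genes in bins of log2 change 0.25 wide. Lower panel: each tick is 1 of the 54 mitotic genes, in rows by role group; all ticks lie between -2.03 and 0.26, and those of the cyclins and kinases are all below 0.

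Promoter sequences are shown for 4 genes that fell and for CDC27, a core APC/C subunit that did not pass. The CCAAT box and the CHR are the elements named above for genes of G2 and M phase. Choosing such genes by name can therefore favour these letters, whatever MK-8776 does. RefSeq (GRCh38.p14) gave promoter windows, from 250 bases before to 50 after a transcription start, for 45 of the 54 measured genes. Capitals mark matches, on either strand, to the CCAAT box bound by NF-Y (CCAAT, read as ATTGG on the other strand), to the cell cycle homology region or CHR (TTTGAA, read as TTCAAA, and TTCGAA) and to an E2F-type motif (GCGGGAA, read as TTCCCGC). Overlapping matches were each counted. Each window is written 5′ to 3′ along the gene.
CCNB2, cyclin B2, chr15:59104896-59105195, plus strand: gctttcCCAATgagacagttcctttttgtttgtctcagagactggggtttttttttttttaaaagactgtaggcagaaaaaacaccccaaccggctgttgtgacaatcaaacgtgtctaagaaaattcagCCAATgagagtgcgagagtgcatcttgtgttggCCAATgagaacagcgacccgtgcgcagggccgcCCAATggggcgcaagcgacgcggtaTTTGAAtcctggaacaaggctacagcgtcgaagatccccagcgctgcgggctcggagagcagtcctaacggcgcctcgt
PLK1, Polo-like kinase, chr16:23678639-23678938, plus strand: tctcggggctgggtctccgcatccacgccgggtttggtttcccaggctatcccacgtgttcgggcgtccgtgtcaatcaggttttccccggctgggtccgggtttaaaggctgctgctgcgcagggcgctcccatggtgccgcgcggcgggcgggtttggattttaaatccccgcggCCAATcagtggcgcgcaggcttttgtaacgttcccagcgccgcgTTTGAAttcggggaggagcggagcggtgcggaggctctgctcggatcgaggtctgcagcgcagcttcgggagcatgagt
CDC20, the mitotic APC/C activator, chr1:43358731-43359030, plus strand: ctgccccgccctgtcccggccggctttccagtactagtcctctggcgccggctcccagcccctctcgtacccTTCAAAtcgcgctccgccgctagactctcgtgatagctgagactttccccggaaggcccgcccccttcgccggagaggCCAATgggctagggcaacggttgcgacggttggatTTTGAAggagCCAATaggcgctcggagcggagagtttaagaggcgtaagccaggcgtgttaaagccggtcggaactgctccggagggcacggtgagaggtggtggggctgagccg
CCNB1, cyclin B1, chr5:69166900-69167199, plus strand: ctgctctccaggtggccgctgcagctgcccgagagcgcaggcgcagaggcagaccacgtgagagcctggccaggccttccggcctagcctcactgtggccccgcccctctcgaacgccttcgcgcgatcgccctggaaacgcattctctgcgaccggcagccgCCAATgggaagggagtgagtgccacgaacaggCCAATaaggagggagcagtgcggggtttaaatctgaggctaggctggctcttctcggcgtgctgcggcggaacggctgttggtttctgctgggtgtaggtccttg
CDC27, an APC/C scaffold subunit, chr17:47189246-47189545, minus strand: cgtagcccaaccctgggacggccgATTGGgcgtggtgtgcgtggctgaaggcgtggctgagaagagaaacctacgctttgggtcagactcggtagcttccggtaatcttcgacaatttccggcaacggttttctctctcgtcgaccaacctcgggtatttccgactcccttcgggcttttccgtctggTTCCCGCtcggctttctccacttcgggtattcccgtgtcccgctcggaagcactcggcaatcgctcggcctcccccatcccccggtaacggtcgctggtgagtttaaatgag

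In CCNB2, 4 CCAAT boxes stood 244, 120, 87 and 54 bases upstream of the start, followed by TTTGAA 29 bases upstream. PLK1 had a CCAAT box 73 bases upstream and TTTGAA 29 bases upstream. The CDC20 window held CCAAT boxes 100 and 55 bases upstream and TTTGAA 65 bases upstream on the gene's own strand, and CCNB1 held CCAAT boxes 87 and 55 bases upstream and no TTTGAA or TTCGAA. In CDC27 the CCAAT match lay on the opposite strand, 226 bases upstream, and the E2F-type match 62 bases upstream.

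A CCAAT box was found in at least 1 window of all 17 falling genes that have a window, against 17 of 28 genes that did not pass and 42.3% of the 14250 array genes with a window. Counted by window, the shares were 90.5% of 21, 50% of 38 and 34.7% of 20090. At least 2 CCAAT boxes stood in 61.9% of the windows of falling genes, 18.4% of those of genes that did not pass and 11.4% of those of all array genes. Outside the APC/C core, 12 of the 19 genes that did not pass had a CCAAT box (63.2%). By window this was 52.2% of 23, and 26.1% of these held at least 2. TTTGAA or TTCGAA was found in 12 of the 17 falling genes (70.6%), in 14 of the 19 genes outside the APC/C core that did not pass (73.7%) and in 17.5% of array genes with a window. Counted by window, these shares were 57.1%, 65.2% and 13.7%. Among the 9 APC/C core genes, 5 had a CCAAT box, 3 had TTTGAA and 0 had both in 1 window. GCGGGAA occurred in 0 of 21 windows of falling genes and 5 of 15 windows of the APC/C core genes. The other genes that did not pass had it in 3 of 23 windows, and all array genes in 8.26% of windows. Counted by gene, GCGGGAA occurred in 0 of 17 falling genes and 4 of the 9 core genes. For the other genes that did not pass this was 3 of 19, and for array genes with a window 10.8%. Windows of 1 gene can overlap and hold the same matches, as in AURKB and PTTG1, so windows are not separate units. Over all windows in the table, whatever the gene, 34.6% of 35116 held CCAAT, 16.4% TTTGAA or TTCGAA and 6.55% GCGGGAA. These are matches of letters, not measured binding.

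**Figure D3:**
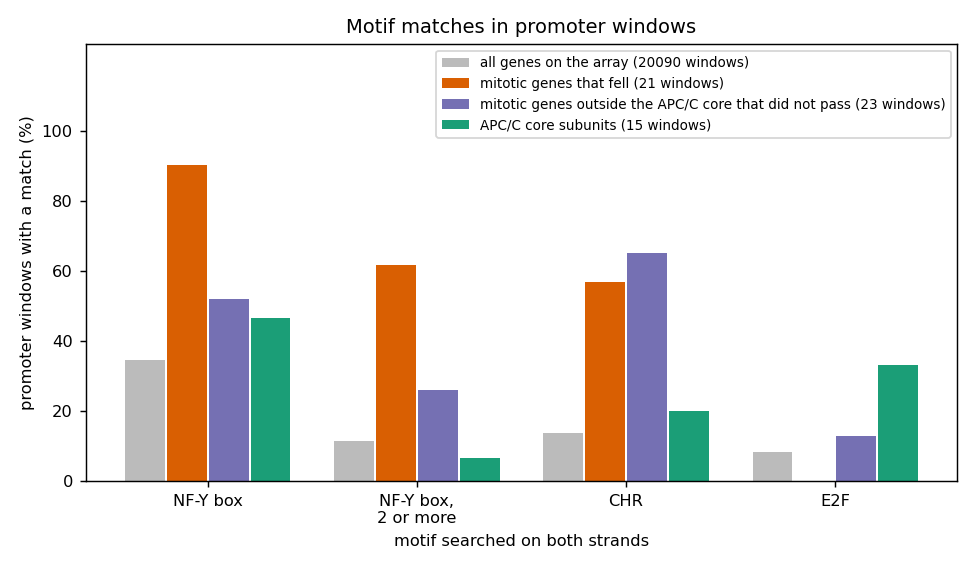
Percent of promoter windows with a match on either strand to CCAAT (NF-Y box), at least 2 CCAAT matches, TTTGAA or TTCGAA (CHR) and GCGGGAA (E2F), for all genes on the array and for 3 sets of the mitotic genes. The CCAAT bar of the falling genes stands at 90.5%, that of all array genes at 34.7%.

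All 16 genes of the cyclins and mitotic kinases had lower values on both MK-8776 arrays than on both DMSO arrays, against 24.2% of all genes. Of them 9 fell, against 2.02% of all genes, and 7 did not pass. The median change was -1.115. NEK2, a centrosome kinase that helps to separate the spindle poles (feature TC0100017216.hg.1, chromosome 1, 211658256 to 211675621, GRCh38), measured 8.54 and 8.62 on the DMSO arrays and 6.60 and 6.50 on the MK-8776 arrays. The nearest arrays of the groups were 1.94 apart against 0.08 and 0.10 within the groups, and the change was -2.03 (SE 0.20, adjusted p = 0.00332, limma), a 4.08-fold lower level. CCNB2, which encodes cyclin B2 (feature TC1500007392.hg.1, chromosome 15, 59105146 to 59125045), measured 10.52 and 10.92 in DMSO and 8.35 and 9.09 in MK-8776. MK-8776 replicate 1 was the lower of its pair, and the change came to -2.0 (SE 0.29, adjusted p = 0.0120, limma). PLK1, the Polo-like kinase of mitotic entry and spindle assembly (feature TC1600007235.hg.1, chromosome 16, 23678889 to 23690367), measured 13.29 and 13.05 in DMSO and 11.22 and 11.27 in MK-8776. The MK-8776 arrays differed by only 0.05, and the change was -1.925 (SE 0.21, adjusted p = 0.00477, limma).

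The cyclin A2 gene CCNA2 fell by 1.78, with MK-8776 values of 8.69 and 9.50 (adjusted p = 0.0168, limma). CCNF, which encodes the substrate receptor cyclin F of an SCF ubiquitin ligase, changed by -1.7 and the cyclin B1 gene CCNB1 by -1.38, both past the threshold. AURKB, the Aurora kinase of the chromosomal passenger complex, fell by 1.215, and PLK4, the kinase that starts centriole duplication, fell by 1.02. CKS1B, a small CDK-binding protein gene, fell by 1.21. Its paralog CKS2 changed by -0.485 (95% interval -0.99 to 0.020) and did not pass. AURKA, the Aurora kinase of the spindle poles, changed by -0.815 and missed the threshold (adjusted p = 0.0798, limma), though not when a variance trend was fitted (0.0237) or dim features were left out (0.0435), in a range of 0.0237 to 0.109 over the alternatives that use all arrays. PBK, a mitotic kinase gene, changed by -0.96 (adjusted p = 0.0591, limma) and passed when dim features were left out (0.0340, in a range up to 0.0769). MASTL, which encodes Greatwall, the kinase that holds PP2A-B55 in check, changed by -0.945 and did not pass, with DMSO values of 6.25 and 5.46 that were further apart than its MK-8776 values of 4.82 and 5.00. CDCA3, a trigger of mitotic entry, and GTSE1, a microtubule-binding regulator of p53, changed by -0.895 and -0.645 and did not pass. The CDCA3 MK-8776 arrays read 3.24 and 3.98, and the first is under the lower quartile of all values (3.97). BORA, the cofactor through which Aurora A activates PLK1, showed the smallest change of the group. It measured 6.98 and 7.09 in DMSO and 6.87 and 6.51 in MK-8776, giving a change of -0.345 (SE 0.22, adjusted p = 0.469, limma). The AURKB, PLK4 and CKS1B adjusted p-values ran from 0.0187 to 0.0541, 0.0193 to 0.0708 and 0.00470 to 0.0526 over the alternative settings that use all arrays.

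**Figure D4:**
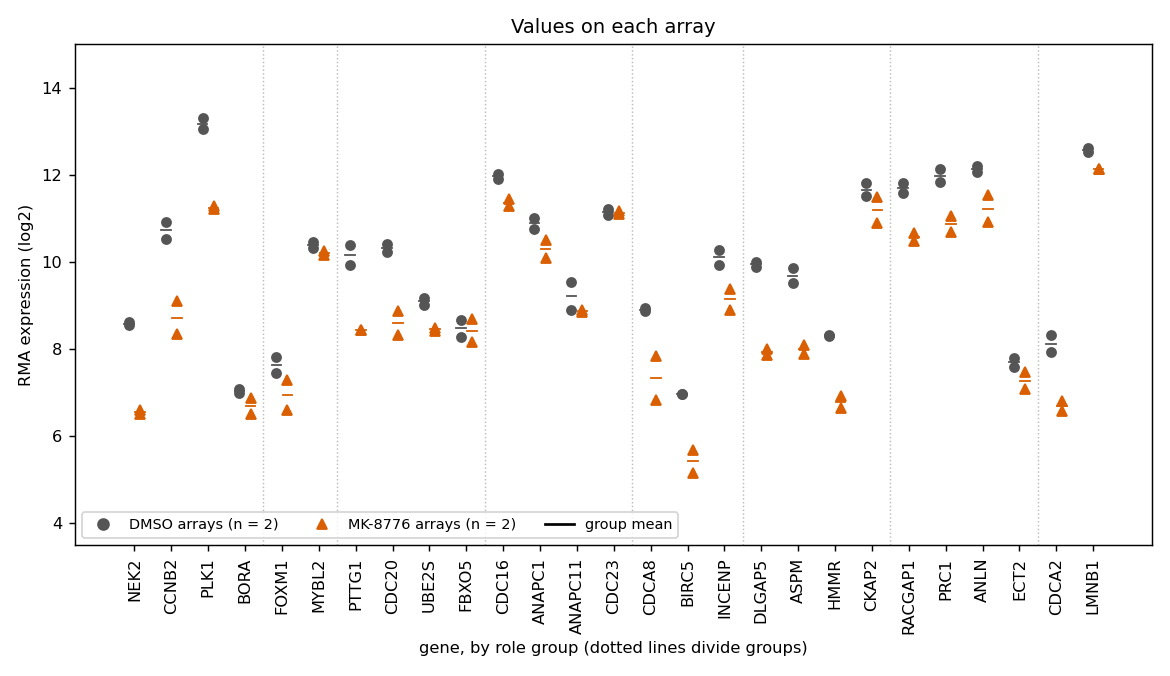
RMA expression (log2) of 27 of the mitotic genes on each array, DMSO as grey circles and MK-8776 as orange triangles, with group means as short lines and role groups divided by dotted lines. NEK2, PLK1 and DLGAP5 show wide gaps with tight replicates, while the pairs of FBXO5 interleave and those of CDC23 nearly coincide; levels are not comparable between genes.

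Neither transcription factor of the set passed. FOXM1, the forkhead factor of late cell cycle genes, measured 7.44 and 7.82 in DMSO and 6.59 and 7.29 in MK-8776. The groups did not overlap, but the nearest arrays were 0.15 apart and the change was -0.69 (SE 0.28, adjusted p = 0.233, limma). MYBL2, which encodes B-MYB, measured 10.31 and 10.46 in DMSO and 10.15 and 10.25 in MK-8776, which is a change of -0.185 (95% interval -0.66 to 0.29, adjusted p = 0.701, limma).

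Among the 7 partners of the APC/C, 2 fell, against 2.02% of all genes, and 5 did not pass. PTTG1 encodes securin, the inhibitor of separase and an APC/C substrate (chromosome 5, 160421855 to 160428744). It measured 9.92 and 10.39 in DMSO and 8.43 and 8.44 in MK-8776, or a change of -1.72 (SE 0.23, adjusted p = 0.00881, limma), and it has close paralogs, so how much of the signal comes from PTTG1 itself is uncertain. CDC20, the activator that starts anaphase (chromosome 1, 43358981 to 43363203), measured 10.22 and 10.40 in DMSO and 8.33 and 8.88 in MK-8776, so the change was -1.705 (SE 0.25, adjusted p = 0.0120, limma). The nearest arrays of the groups were 1.48 apart in PTTG1 and 1.34 in CDC20. FZR1, the activator that takes over at mitotic exit, changed by 0.26 (95% interval -0.29 to 0.81) and its groups overlapped.

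The ubiquitin-chain enzymes of the APC/C did not pass. UBE2S, which extends the chains, measured 9.02 and 9.17 in DMSO and 8.49 and 8.42 in MK-8776, giving a change of -0.64 (SE 0.20, adjusted p = 0.138, limma). UBE2C, which starts them, measured 5.91 and 4.94 in DMSO and 5.82 and 4.91 in MK-8776. Replicate 1 was nearly 1 log2 unit above replicate 2 in both groups, so its change of -0.06 has a 95% interval from -0.94 to 0.82. FBXO5, which encodes the APC/C inhibitor EMI1, measured 8.67 and 8.27 in DMSO and 8.15 and 8.68 in MK-8776. The pairs interleaved, with a change of -0.055 (SE 0.26, adjusted p = 0.946, limma) whose sign turned after quantile normalization (0.015). ESPL1, which encodes separase, the protease that opens cohesin rings, changed by -0.36 and did not pass.

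None of the 9 measured APC/C core subunits passed in the limma fit. With 3.69% of all genes called, 0 of 9 is near that share. Their changes ran from -0.605 to 0.19 with a median of -0.235. An unadjusted p under 0.05 was seen in 2 of the 9, against 18.8% of all genes (limma). Both MK-8776 arrays lay below both DMSO arrays in 3 of them, against 24.2% of all genes. CDC16, CDC23, CDC27 and ANAPC7 encode its TPR arms, ANAPC4 and ANAPC5 its platform and ANAPC10 a substrate co-receptor. CDC16 measured 12.02 and 11.91 in DMSO and 11.45 and 11.27 in MK-8776, which is a change of -0.605 (SE 0.21, adjusted p = 0.161, limma). ANAPC1, the largest scaffold subunit, measured 11.01 and 10.75 in DMSO and 10.09 and 10.50 in MK-8776, or a change of -0.585 (SE 0.23, adjusted p = 0.225, limma). These were the widest shifts of the core, and in both the groups did not overlap. ANAPC11, the RING subunit that binds the E2 enzyme, measured 8.89 and 9.53 in DMSO and 8.84 and 8.89 in MK-8776, so its higher MK-8776 value equalled its lower DMSO value. CDC23 measured 11.08 and 11.22 in DMSO and 11.09 and 11.16 in MK-8776, so the change was -0.025 with a 95% interval from -0.49 to 0.44. The CDC27 change was -0.045 (95% interval -0.52 to 0.43), that of ANAPC5 -0.33, that of ANAPC7 -0.235, that of ANAPC4 0.125 and that of ANAPC10 0.19. The 95% interval left out a 2-fold change in either direction in 7 of the 9, the exceptions being CDC16 and ANAPC1. ANAPC1 and CDC27 have near-identical copies in the genome, which may share their probes, so both values are uncertain. The 5 other APC/C subunits on the array, ANAPC2, ANAPC13, ANAPC15, ANAPC16 and CDC26, also gave 0 calls in the limma fit and 0 at an unadjusted p under 0.05, with changes from -0.185 for ANAPC16 to 0.12 for ANAPC15. The APC/C core and its partners differ here in count and median only. The difference between these groups of genes was not tested.

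The chromosomal passenger complex carries Aurora B to centromeres and later to the midzone. CDCA8, which encodes borealin, measured 8.93 and 8.87 in DMSO and 6.82 and 7.84 in MK-8776. It fell by 1.57 (SE 0.32, adjusted p = 0.0378, limma), with the MK-8776 arrays 1.02 apart. BIRC5, which encodes survivin, measured 6.96 on both DMSO arrays and 5.16 and 5.68 in MK-8776, giving a change of -1.54 (SE 0.24, adjusted p = 0.0153, limma). INCENP, the scaffold of the complex, measured 9.93 and 10.27 in DMSO and 8.90 and 9.37 in MK-8776. Its groups did not overlap, and its change of -0.965 (SE 0.25) missed the threshold (adjusted p = 0.0762, limma), though not when a variance trend was fitted (0.0337) or dim features were left out (0.0458), in a range up to 0.0887. AURKB, its kinase, is given above at -1.215, so of the 4 subunits 3 fell, against 2.02% of all genes.

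Of the 10 measured spindle genes 5 fell (TPX2, HMMR, DLGAP5, ASPM and CKAP2L), against 2.02% of all genes, and 5 did not pass. All 10 had both MK-8776 arrays below both DMSO arrays, against 24.2% of all genes, and the median change was -1.348. DLGAP5, a microtubule-bundling protein gene (chromosome 14, 55148135 to 55191585), measured 9.88 and 10.00 in DMSO and 8.01 and 7.87 in MK-8776, a difference of -2.0 (SE 0.21, adjusted p = 0.00374, limma). ASPM, a spindle-pole protein gene, measured 9.85 and 9.51 in DMSO and 7.89 and 8.10 in MK-8776, which is a change of -1.685 (SE 0.22, adjusted p = 0.00855, limma). HMMR, which encodes a spindle-assembly partner of TPX2, measured 8.32 and 8.30 in DMSO and 6.65 and 6.93 in MK-8776, or a change of -1.52 (SE 0.21, adjusted p = 0.0105, limma). The nearest arrays of the groups were 1.87, 1.41 and 1.37 apart in these genes, more than the 0.12 to 0.34 between the DMSO arrays of the first and second and the 0.28 between the MK-8776 arrays of HMMR.

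TPX2, the activator of Aurora A on the spindle, fell by 1.485 with MK-8776 values of 8.53 and 9.50 (adjusted p = 0.0421, limma, from 0.00999 to 0.0624 over the alternatives that use all arrays, 0.0522 with all features tested). CKAP2L, a spindle protein gene, fell by 1.295. SPAG5, which encodes astrin, changed by -1.40 and did not pass (adjusted p = 0.110, limma). Its MK-8776 arrays read 3.95 and 5.34, and the first is under the lower quartile of all values (3.97). TACC3, a partner of clathrin on spindle fibres, changed by -0.76 and passed only with a variance trend (0.0470, in a range up to 0.125). TROAP, a spindle-associated protein gene, and NUSAP1, which encodes a microtubule-bundling protein, changed by -0.655 and -0.59 and did not pass. CKAP2, a microtubule-associated protein gene, showed the smallest change. It measured 11.80 and 11.50 in DMSO and 10.90 and 11.48 in MK-8776, so the nearest arrays were 0.02 apart, and the change was -0.46 (SE 0.26, adjusted p = 0.392, limma).

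Of the 5 measured cytokinesis genes 2 fell, against 2.02% of all genes, and the median change was -0.915. RACGAP1, a subunit of the centralspindlin complex, measured 11.59 and 11.81 in DMSO and 10.48 and 10.65 in MK-8776, so the change was -1.135 (SE 0.21, adjusted p = 0.0290, limma). PRC1, which cross-links midzone microtubules, measured 11.84 and 12.13 in DMSO and 10.68 and 11.05 in MK-8776, giving a change of -1.12 (SE 0.23, adjusted p = 0.0387, limma). Over the alternatives that use all arrays the adjusted p of these genes ran up to 0.0584 and 0.0600. ANLN, which encodes the contractile-ring scaffold anillin, measured 12.07 and 12.21 in DMSO and 10.91 and 11.54 in MK-8776. Its change of -0.915 (SE 0.26) did not pass (adjusted p = 0.0982, limma) except with a variance trend (0.0262, in a range up to 0.112). ECT2, the RhoA exchange factor that RACGAP1 recruits, measured 7.59 and 7.79 in DMSO and 7.47 and 7.07 in MK-8776, which is a change of -0.42 that did not pass. The abscission gene CEP55 changed by -0.60 (95% interval -1.23 to 0.025) and did not pass.

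CDCA2, which encodes the chromatin-bound phosphatase subunit Repo-Man, measured 8.31 and 7.92 in DMSO and 6.57 and 6.81 in MK-8776, or a change of -1.425 (SE 0.23, adjusted p = 0.0178, limma). LMNB1, which encodes lamin B1 of the nuclear envelope, measured 12.53 and 12.61 in DMSO and 12.12 and 12.14 in MK-8776. The pairs were tight and did not overlap, and the change of -0.44 (SE 0.20, adjusted p = 0.288, limma) did not pass.

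The shift was larger on 1 of the treated arrays. Taking each gene's distance from its DMSO mean, the median over the 54 was -1.017 on MK-8776 replicate 1 and -0.69 on replicate 2, against -0.04 and 0.04 on the DMSO arrays. MK-8776 replicate 1 was the lower in 39 genes and the higher in 15. By role the medians on MK-8776 replicates 1 and 2 were -1.80 and -1.06 for the passenger complex, -1.558 and -0.922 for spindle genes, -1.22 and -0.62 for cytokinesis genes, -1.297 and -1.08 for cyclins and kinases, and -0.34 and -0.14 for the APC/C core. The APC/C partners went the other way, with medians of -0.32 and -0.515 and replicate 1 the higher in 4 of 7 genes. Leaving out the first of these arrays gave a median of -0.69 over the 54, and leaving out the second gave -1.02. What sets these arrays apart was not tested.

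**Figure D5:**
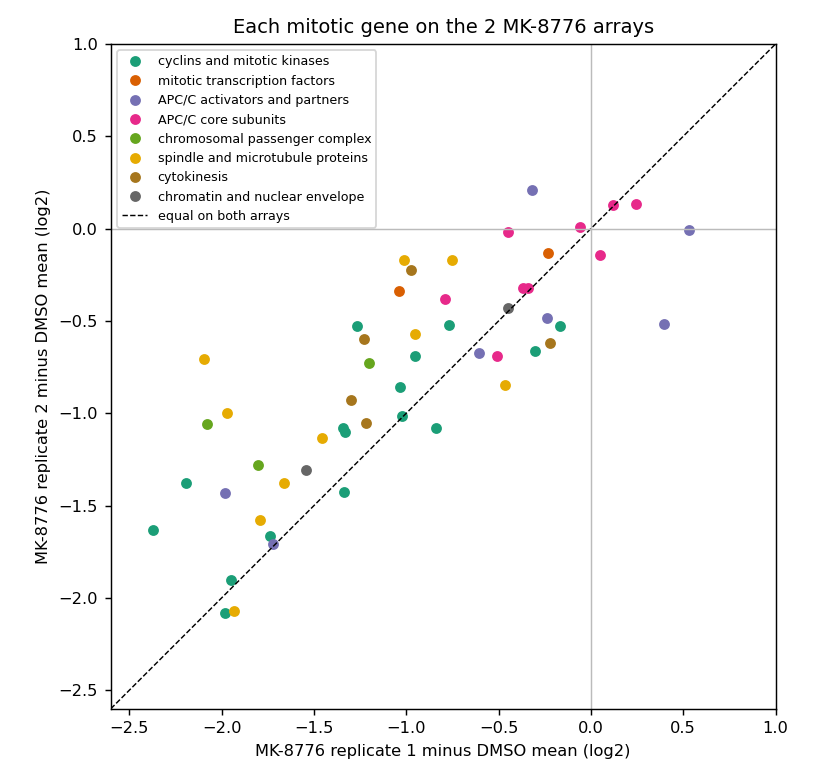
Distance of each of the 54 genes from its DMSO mean (log2) on MK-8776 replicate 1 (x axis) and replicate 2 (y axis), coloured by role; the dashed line marks equal values. Of the 54 points, 39 lie above the line, where replicate 1 is the lower.

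Genes around this machinery give the setting, in which 2.02% of all genes fell. CHEK1, which encodes the compound's target CHK1, measured 10.90 and 11.13 in DMSO and 10.08 and 10.33 in MK-8776, which is a change of -0.81. Its adjusted p was 0.0883 in the limma fit, 0.0333 with a variance trend and 0.0492 with dim features left out. A transcript level does not show inhibition of the kinase. Of 6 genes for CDK1, its CDC25 activators and WEE kinases 2 fell. CDK1, at 10.21 and 9.77 in DMSO and 7.94 and 8.86 in MK-8776, changed by -1.59, and the phosphatase gene CDC25C changed by -0.995. Of 11 DREAM and MuvB genes 2 fell, with changes of -1.195 for the repressor E2F gene E2F5 and -1.07 for the MuvB gene LIN9, and the median was -0.175. Of 9 cohesin genes CDCA5, which encodes the cohesin protector sororin, fell by 1.315, and the other 8 did not pass. Of 11 augmin and gamma-tubulin genes TUBGCP4 fell by 1.125, and the other 10 did not pass.

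The remaining neighbouring lists gave 0 calls in the limma fit. With 3.69% of all genes called, 0 is near that share in lists this short. Over all genes, 18.8% had an unadjusted p under 0.05 (limma). Of 9 centriole and centrosome genes, where PCNT was at 0.78 and SASS6 at -0.705, 2 had an unadjusted p under 0.05. Of 6 other nuclear lamina and envelope genes, where LMNA was at 0.945 (adjusted p = 0.0593, limma) and EMD at 0.715, 4 did. The Greatwall and PP2A-B55 list (6 genes, PPP2CA at 0.40 and PPP2R2D at -0.23) had 0 and the SCF list (7 genes, SKP2 at -0.815 and SKP1 at 0.385) had 1. Of 15 G1/S replication genes 0 passed and 6 had an unadjusted p under 0.05. Their median was -0.50, with cyclin E2, CCNE2, at 1.265 (adjusted p = 0.0934) and UHRF1 at -1.11 (adjusted p = 0.198, limma). Median changes of the mitotic and G1/S lists were not tested against each other.

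Cell markers and control genes bear on how the arrays compare. Over all genes 2.02% fell, and 18.8% had an unadjusted p under 0.05 (limma). Of 5 measured promyelocyte markers 2 fell, with changes of -2.2 for CTSG and -2.005 for PRTN3, while MPO, at 16.09 and 16.27 in DMSO and 14.81 and 15.36 in MK-8776, did not pass. The changes of all 5 were negative, from -2.2 to -0.885, the sign that 51 of the 54 mitotic genes have. Among 5 lymphoid markers CD3E fell by 1.38 and 4 did not pass. Their DMSO means ran from 3.355 to 9.69, CD79A being the highest. Among 4 erythroid markers limma called 0, and 1 had an unadjusted p under 0.05, with DMSO means from 3.775 to 5.36, HBB at 0.775 and HBA2 at 0.42. Their part in the result was not tested. Among 8 housekeeping genes limma called 0, and 2 had an unadjusted p under 0.05. Their median change was 0.062, with HPRT1 at -0.735 and YWHAZ at 0.655. Values of the replicate arrays correlated across genes at 0.993 within each group, and the median SD of a gene was 0.163 in DMSO and 0.170 in MK-8776.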

How the data were processed

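Total RNA from 4 samples of NB4-R4 cells, 2 per group, was hybridised to Affymetrix arrays. The deposited values are log2 expression. RMA and build hg38 are named in the submitters' processing notes; for its version and settings the sources used here give nothing. The log2 scale was read from the range, 2.16 to 18.54. Scanner files were not used, so there is no detection call, and the number of arrays limits the precision. Of 21448 features, 17709 have 1 gene symbol and 3739 none; for 20 genes with several features the highest mean was kept. Values of 17687 genes were fitted with limma 3.58.1 in R 4.3.3 (lmFit, eBayes, 2 residual and 6.30 prior degrees of freedom, prior SD 0.230, no filter). An exact permutation test of 2 against 2 arrays cannot go below p = 0.333. On 20 simulated sets of 17687 genes, with 200 changed, the fit recovered 8.05% of log2 changes of 1 and 93.5% of changes of 2. False calls made up 4.89%. The simulated noise was drawn from the fitted variance model, so that share does not measure false calls on these arrays. In the data 652 genes passed, which sets a looser cut than in the simulation, so the recovered shares do not carry over. A gene that did not pass may still have changed 2-fold unless its interval excludes it. Intervals are 95% limma intervals per gene.

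Members and lists were chosen with earlier results of these data known. Every measured member is named, with values per array for the 3 largest changes and the smallest in each role group. Array values are also quoted for CHEK1, the compound's target, and for some other genes, though not for every gene whose replicates lay apart. From other lists up to 3 genes past the threshold are named, or the 2 largest changes. Gene coordinates, counted from 1, and promoters are from RefSeq, GRCh38.p14. Alternatives were quantile normalization, median centring, leaving out features under the median level (dim features), fitting a variance trend, a replicate block, all features, the mean of a gene's features and leaving out each array.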

Additional observations from a re-analysis of the deposited data

How the results depend on the processing

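The count of mitotic genes past the threshold was 21 as reported, and 20 to 25 under quantile normalization, median centring, a filter on the level, a variance trend, all features and the mean of a gene's features; 20 of the 21 were called under each of these, TPX2 being the exception. With any 1 array left out the count was 0, and the count over all genes 0 to 34 against 652 as reported. A variance trend raised the count over all genes to 1185. Taking the mean of a gene's features left the values of the 54 as they were, since each has 1 feature. The medians of the arrays ran from 5.76 to 5.79, so median centring could move values only slightly. Both settings are therefore weak checks. With the replicate number as a replicate block, 12 of the 54 and 309 of all genes passed, and the 12 were all among the 21; AURKB, PLK4, CKS1B, CDCA8, TPX2, CKAP2L, PRC1, RACGAP1 and CDCA2 were not called. The labels tie the numbers to nothing shared, and the deviations of same-numbered arrays correlated at 0.139 over genes. The median change of the 54 ran from -0.86 to -0.845 under the settings that use all arrays and all 54 genes, was -0.815 over the 49 left by the filter on the level, and ran from -1.02 to -0.69 when 1 array was left out. Signs turned for genes near 0, none of which passed in any fit: FBXO5 after quantile normalization (0.015) and, when 1 array was left out, FBXO5 (range -0.32 to 0.21), UBE2C (-0.545 to 0.425), ANAPC4 (-0.165 to 0.415), ANAPC10 (-0.075 to 0.455), CDC23 (-0.095 to 0.045), FZR1 (-0.010 to 0.53) and CDC27 (-0.14 to 0.050). The causes were not tested. Leaving out an array or adding the replicate block each left 1 residual degree of freedom, against 2 in the main fit.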

Other observations

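The distance between neighbouring CCAAT boxes on 1 strand was measured after the promoter windows had been read, in the 20 windows of the mitotic genes that hold at least 2 such boxes. In 6 of them, 30.0%, a pair of boxes started 31 to 34 bases apart, against 13.6% of the 1661 such windows among all array genes. These were the windows of CCNB2 (33 and 33 bases), CCNB1 (32), NEK2 (32), HMMR (33), CKS1B (32) and BORA (32). All but BORA fell after MK-8776, and 12 of the 19 genes with such windows did. The range of 31 to 34 bases was chosen after the values were seen, so the shares do not test a spacing. Windows with more boxes, such as that of CKS1B with gaps of 39, 58, 32 and 48 bases, have more chances of a pair in that range. With 20 windows this is a description of the letters, and binding was not measured.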
